A study of Mus musculus with 12 samples.

Results

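Carbonic anhydrase genes were described in RNA-seq counts of mouse eosinophils, with 4 genes as the members: Car4, Car1, Car2 and Car13. They were taken by symbol from the identifiers of the count table, which lists 53801 genes, of which 16 belong to the carbonic anhydrase family, and they were picked with their levels by tissue and genotype in these libraries already known. The members' levels and fold changes are therefore given as descriptions, without a test, and tests are given only for other genes. The study compared eosinophils with and without Atg5, a gene needed to form autophagosomes, in bone marrow and in blood, with 3 libraries in each of the 4 groups and 12 in all.

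Atg5-knockout mice were Atg5 flox/flox with the eoCre allele, a Cre recombinase knocked into the eosinophil peroxidase gene Epx, so that recombination follows Epx expression. Control mice carried eoCre without floxed Atg5. The recombinase was heterozygous, and both genotypes carried the Il5 transgene Tg(Cd3d-Il5), which drives interleukin-5 from T cells and enlarges the eosinophil pool, so no library comes from mice with normal interleukin-5. No age is used here, because none is tied to these libraries. Eosinophils of both tissues were enriched by antibody depletion of neutrophils, macrophages, B cells and T cells. Blood was first spun over a density medium and its red cells were lysed briefly in water. Neither tissue had a depletion step for nucleated red cell precursors. The labels do not say whether equal replicate numbers mean the same mouse. Where nothing shows that libraries of a group came from separate mice, p-values measure only the spread between these libraries. The RNA is from bulk cells, in which fewer cells of a type and less RNA per cell cannot be told apart.

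Carbonic anhydrases are zinc enzymes that interconvert carbon dioxide and water with bicarbonate and a proton, and so set the speed of pH and CO2 exchange in a cell. CAR4 sits on the outer cell surface on a GPI anchor. CAR1, CAR2 and CAR13 are cytosolic, and CAR1 and CAR2 are abundant in red cells, while CAR2 also acidifies the resorption space of osteoclasts. Bicarbonate transporters, proton and lactate exporters, and aquaporins move what the enzymes make, and carboxylases use the bicarbonate.

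The sequences shown here are the Car4 primers, which mark the transcripts the study could amplify by PCR, and the stretch around the Car4 start site. The study designed a PCR primer pair for Car4, and both primers exactly matched transcripts of Car4 and of no other gene in GENCODE M39. Each primer was searched in its priming orientation only, and sites with mismatches were not searched. Of 22 annotated Car4 transcripts, 19 held the forward primer, 13 the reverse primer and 12 both, with a product of 305 bases in 10 transcripts and 159 bases in 2. In the RefSeq promoter table (GRCm38.p6), of the members only Car4 was matched, and its entry covers 250 bases before and 50 bases after the annotated start, chr11:84957504-84957803 on the plus strand. The primers and this promoter, each 5′ to 3′, are as follows, with capitals in the promoter marking the matched letters.
Car4 forward primer: ccttcatcctcgtcggct
Car4 reverse primer: caccttgtctcctacctcaatc
Car4 promoter: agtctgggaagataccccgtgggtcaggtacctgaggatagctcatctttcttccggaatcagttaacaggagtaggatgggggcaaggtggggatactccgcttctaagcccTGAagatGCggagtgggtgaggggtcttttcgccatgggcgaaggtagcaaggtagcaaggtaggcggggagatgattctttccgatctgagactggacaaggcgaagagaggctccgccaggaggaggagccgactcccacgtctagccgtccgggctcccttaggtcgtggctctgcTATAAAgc
A search of both strands for 11 motifs found 2. TATAAA lay at base 293 of the window, 43 bases into the transcript, and 13.6% of 32851 promoters of the same length held it. TGANNNNGC, the core letters bound by NRF2, lay at base 114, 137 bases before the start, and 41.3% of promoters held it. The GATA letters AGATAA or TGATAA, the letters CCACCC of Krüppel-like factors, the ETS core GGAAGT, the C/EBP pattern TTGCNNAA, the lysosomal CLEAR core CACGTG, the STAT pattern TTCNNNGAA, the GC box GGGCGG and the ATF4 pattern TGATGNAA were not in this window. These matches are letters in a window and were not tested as binding sites.

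The libraries held between 18885052 and 30270166 counts. The spread between replicates of a group exceeded counting noise, so none was treated as a duplicate. The eosinophil list, 10 genes such as Epx and the surface lectin Siglecf, held 8.04% to 9.10% of counts in control marrow, 8.69% to 10.3% in Atg5-knockout marrow, 2.24% to 4.05% in control blood and 1.80% to 2.85% in Atg5-knockout blood, with all 10 genes detected in every library. Control blood replicate 1 stood apart, with 14.6% of its counts on 15 red cell genes, against 0.426% to 1.43% in the other blood libraries. The B and T cell list, 8 genes such as Cd79a and Cd3e, held 0.0870% of counts in Atg5-knockout blood replicate 1 and 0.0397% in control blood replicate 1, against 0.00105% to 0.00374% in the other blood libraries and 0.00155% to 0.00232% in marrow. All 8 of its genes had a positive log2 fold change in knockout against control blood (median 0.87), with 0 called by edgeR and 0 at an unadjusted p under 0.05, and 6 of 7 tested were called higher in blood between knockout tissues (23.5% of all genes were called higher there). Without Atg5-knockout blood replicate 1 all 8 were negative between genotypes in blood (median -2.17, 0 called). Without control blood replicate 1 all 8 were positive (median 4.10), with 8 at an unadjusted p under 0.05 and 0 called. The direction between genotypes in blood thus turned with the library left out. Between knockout tissues, without Atg5-knockout blood replicate 1, 4 of 7 were called, all 4 higher in blood (54.3% of all genes were called), and 6 were positive. The neutrophil list, 10 genes, held 2.22% to 3.17% of counts in marrow and 1.19% to 2.12% in blood. Its highest blood share was in Atg5-knockout blood replicate 1, where it exceeded the 1.80% of the eosinophil list. These are shares of counts on unlike genes and do not give shares of cells. The monocyte and macrophage list, 10 genes, held 0.258% to 0.314% in every library. Atg5, counted over all exons and so also over exons outside the floxed part, had 41.4, 45.4 and 40.5 CPM (the usual counts per library size, with TMM scaling factors) in control marrow and 30.6, 31.3 and 33.9 CPM in Atg5-knockout marrow, a log2 fold change of -0.44 (SE 0.11, adjusted p = 0.156, edgeR). In blood its log2 fold change was -0.01 (adjusted p = 1.0, edgeR), so these counts do not separate the genotypes in blood. The blood libraries are grouped here by their labels. The study also assayed Atg5 mRNA by PCR and ATG5 protein by immunoblot in eosinophils of both tissues and genotypes.

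Car4 was the carbonic anhydrase with the highest level per kb of exon in all libraries but 1, and the only member that was lower in Atg5-knockout than in control marrow. The gene is ENSMUSG00000000805 on chromosome 11, 84957786 to 84966044 on the plus strand (GRCm38), with 1966 bases of exon. Control marrow libraries held 213, 204.5 and 166 CPM of Car4 and Atg5-knockout marrow libraries 46.5, 46.5 and 76.4 CPM. All 3 knockout libraries lay below all 3 control libraries, with means of 56.4 ± 17.2 CPM (SD, n = 3) against 194 ± 25.1 CPM (SD, n = 3). Control marrow thus had 3.44 times the mean Car4 level of knockout marrow, and the fitted log2 fold change was -1.81 (SE 0.19). Of 13781 genes tested in marrow, 15 had a lower fitted fold change. Since Car4 was picked with these levels in view, nothing is read from that rank. Every library in this comparison could be left out without turning the direction, and the log2 fold change then lay between -2.10 and -1.69. The share of counts on the eosinophil list, given above, overlapped between these groups. Of its 10 genes, 7 had a positive and 3 a negative log2 fold change in knockout marrow, from -0.49 to 0.26 with a median of 0.12 against 0.00 over all genes tested. The 3 negative genes were the receptor genes Ccr3 (-0.49), Siglecf (-0.25) and Il5ra (-0.24), the 3 of the list with an unadjusted p under 0.05, and edgeR called 0. Their signs are those of Car4, and the groups did not overlap for Ccr3. The part of this list in the Car4 difference was not tested.

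In blood the Car4 level varied more. Control blood libraries held 109, 335 and 551 CPM and Atg5-knockout blood libraries 92.4, 178.5 and 208 CPM. The groups overlapped, and the lowest control library, replicate 1, is the one rich in red cell RNA. The fitted log2 fold change was -1.03 (SE 0.52), and -0.83 (SE 0.21) with the replicate number as a block. Blood libraries of equal number deviated together, but no label pairs knockout with control mice. Taken by equal number, the knockout library was the lower in 3 of 3 pairs. Without control blood replicate 3 the log2 fold change was -0.46, and without control blood replicate 1 it was -1.45. Without Atg5-knockout blood replicate 1, the lowest for Car4 and the highest for the B and T cell list, it was -0.77. The eosinophil list held 2.24%, 2.97% and 4.05% of counts in control blood and 1.80%, 2.85% and 2.73% in knockout blood, so its share, like Car4, was lower in the knockout library in 3 of 3 pairs. Of its 10 genes 9 had a negative log2 fold change in knockout blood, with a median of -0.33 against 0.01 over all genes, 1 at an unadjusted p under 0.05 and 0 called by edgeR. Without Atg5-knockout blood replicate 1, 7 of the 10 were negative, with a median of -0.10. Without control blood replicate 1 all 10 were negative, with a median of -0.47, 2 at an unadjusted p under 0.05 and 0 called. The part of these lists in the Car4 difference was not tested.

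Between tissues, Car4 was higher in blood than in marrow in the knockout groups, which did not overlap, with a log2 fold change of 1.51 (SE 0.31). In the control groups the tissues overlapped and the log2 fold change was 0.76 (SE 0.46). It was 0.19 without control blood replicate 3 and 1.18 (SE 0.20) without control blood replicate 1. With the replicate block it was 0.50, and with library size alone 0.45. Ordered by mean, Car4 ran from control blood (332 ± 221 CPM, SD, n = 3) through control marrow and Atg5-knockout blood (160 ± 60.1 CPM, SD, n = 3) to Atg5-knockout marrow. Of these neighbours only the last pair did not overlap. Of the eosinophil list 8 of 10 genes were called between tissues in each genotype, 6 lower and 2 higher in blood, with medians of -0.69 in control and -1.11 in knockout mice. Over all genes 34.2% were called in control mice (18% lower, 16.2% higher) and 47.6% in knockout mice (24.1% lower, 23.5% higher). With library size alone the split was less even. It was 3910 genes lower and 1306 higher in control mice, and 4342 lower and 2254 higher in knockout mice. Other marker lists also differed between tissues. Of 10 neutrophil genes 4 were called in control mice, all lower in blood, and 7 in knockout mice, 6 of them lower. Of 10 monocyte and macrophage genes 6 were called in control mice, 5 of them higher in blood, and 7 in knockout mice, 4 of them higher. Of the platelet list 10 of 11 were called in control mice, all higher in blood, and 4 of 10 in knockout mice, 3 of them higher. Without control blood replicate 1 the neutrophil list had 8 called in control mice, 7 of them lower, and the platelet list 9, all higher (42% of all genes were called). Without Atg5-knockout blood replicate 1 the platelet list had 2 called in knockout mice, 1 higher and 1 lower (54.3% of all genes were called). Of the basophil and mast cell list 5 of 7 were called in control and 6 of 7 in knockout mice, all lower in blood. The part of these lists in the Car4 difference between tissues was not tested.

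**Figure D1:**
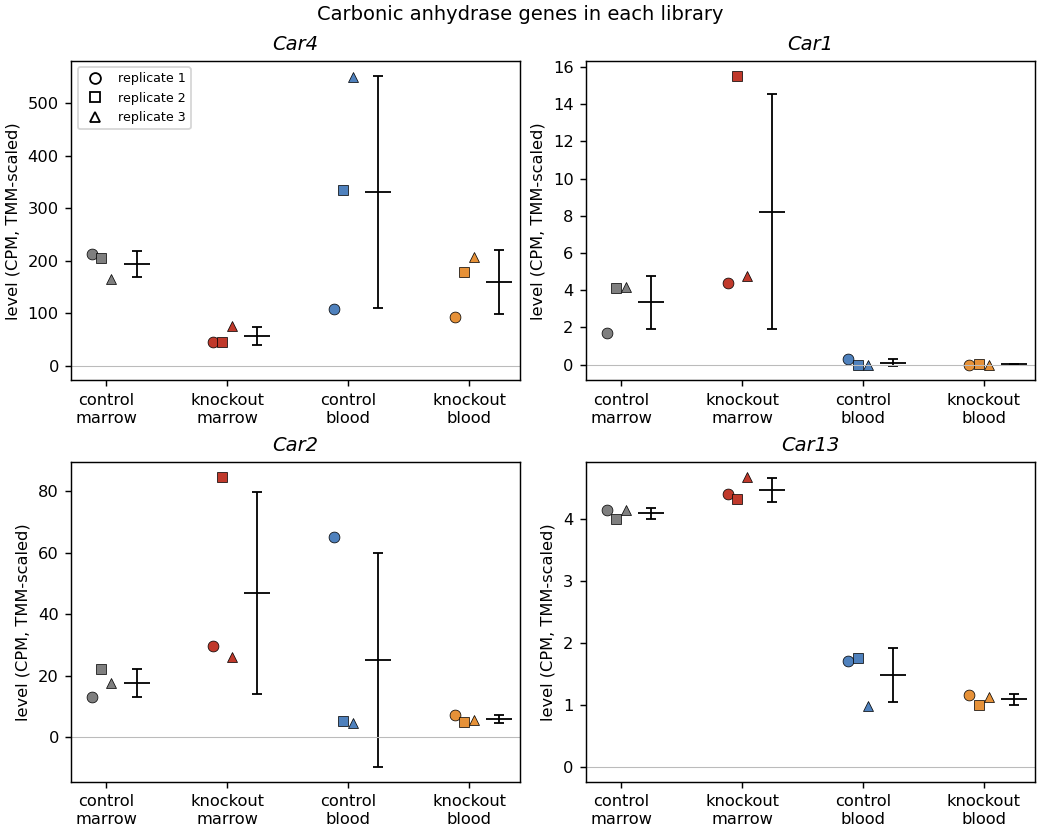
Levels of Car4, Car1, Car2 and Car13 (CPM, linear axes from each gene's own scale) in the 12 libraries, with symbols for the replicate number and a bar for the mean ± SD of 3 libraries, which for Car2 in control blood reaches below 0. Car4 lies at 46.5 to 76.4 CPM in Atg5-knockout marrow, below all other groups, whereas Car1 and Car2 peak in Atg5-knockout marrow replicate 2 and Car2 also in control blood replicate 1.

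Car13, Car1, Car3 and Car2 lie in that order on chromosome 3, and Car1 and Car2 were higher in Atg5-knockout marrow, where Car4 was lower. Car1 (ENSMUSG00000027556, 14766216 to 14808368, minus strand), a cytosolic enzyme of red cells, had 1.70, 4.14 and 4.17 CPM in control marrow. In Atg5-knockout marrow it had 4.36, 15.5 and 4.79 CPM. The groups were separated by a narrow gap, and replicate 2 of the knockout stood far above the rest. The fitted log2 fold change was 1.28 (SE 0.46), and 0.43 without that library.

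In blood Car1 was all but undetected. Control blood held 5, 0 and 0 counts and Atg5-knockout blood 0, 1 and 0 counts, so the gene was not tested there and no fold between the genotypes is given. All 5 control counts came from replicate 1. Pooled over the group, control marrow (291 counts) had 38.7 times the Car1 level of control blood (95% interval 16.4 to 120). Atg5-knockout marrow (751 counts) had 554 times the level of Atg5-knockout blood, with a 95% interval of 99.1 to 21910 that is wide because blood held 1 count. These intervals cover counting error only.

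Car2 (ENSMUSG00000027562, 14886273 to 14900770, plus strand), the fast cytosolic enzyme, had the same direction as Car1 in marrow but stayed detectable in every blood library. Control marrow held 13.1, 22.3 and 17.6 CPM and Atg5-knockout marrow 29.7, 84.8 and 26.2 CPM. All knockout libraries exceeded all control libraries, with a log2 fold change of 1.38 (SE 0.37). Without Atg5-knockout marrow replicate 2 it was 0.64.

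Control blood held 65.2, 5.41 and 4.56 CPM of Car2 and Atg5-knockout blood 7.37, 4.87 and 5.62 CPM. Replicate 1 of control blood was the only high library, and the other 5 lay together. The log2 fold change between genotypes in blood was -2.05 (SE 0.92), -0.996 with the replicate block, and 0.27 without control blood replicate 1, so its direction rested on that library. The same holds between tissues in control mice, where the log2 fold change of blood over marrow was 0.49 (SE 0.87) and -1.83 without that library. In knockout mice Car2 was lower in blood, with a log2 fold change of -2.96 (SE 0.45) and no overlap. Ordered by mean, Car2 ran from Atg5-knockout marrow (46.9 ± 32.9 CPM, SD, n = 3) through control blood (25.1 ± 34.8 CPM) and control marrow (17.7 ± 4.62 CPM) to Atg5-knockout blood (5.95 ± 1.28 CPM), and only the last pair of neighbours did not overlap.

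Car13 (ENSMUSG00000027555, 14641727 to 14663002, plus strand), a cytosolic enzyme found in many tissues, differed least between the genotypes in marrow. Control marrow held 4.14, 3.99 and 4.14 CPM and Atg5-knockout marrow 4.39, 4.32 and 4.67 CPM. These groups did not overlap, yet the log2 fold change was 0.10 with an SE of 0.19. In blood the libraries held 1.71, 1.76 and 0.98 CPM in control mice and 1.16, 0.99 and 1.12 CPM in knockout mice, which overlapped (log2 fold change -0.42, SE 0.49). Car13 was lower in blood than in marrow in both genotypes without overlap, by log2 fold changes of -1.47 (SE 0.36) in control and -2.01 (SE 0.29) in knockout mice.

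Read together, the CPM of the marrow groups did not overlap for 4 of 4 members, nor for 14.4% of all genes tested there. Fewer genes, 0.348%, passed the other criterion used here and were called at an adjusted p under 0.05. The blood groups overlapped for all members and did not overlap for 7.58% of genes, with 0.0371% called. The control tissues did not overlap for Car1 and Car13, nor for 50.1% of genes (34.2% called), and the knockout tissues did not overlap for 4 of 4 members, nor for 60% of genes (47.6% called). Since the members were picked on these contrasts, nothing is read from those counts. The 4 comparisons share libraries in pairs, so their values are not independent of each other.

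**Figure D2:**
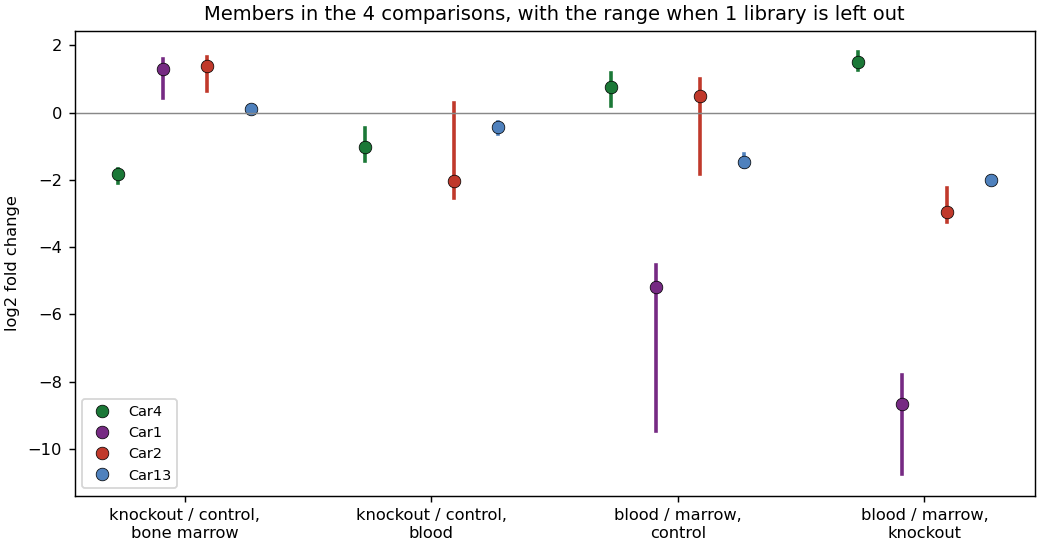
Fitted log2 fold changes of the members in the 4 comparisons (points), with a line for the range when 1 library at a time was left out; Car1 was not tested between genotypes in blood. Car4 stays below 0 in both genotype comparisons and above 0 in both tissue comparisons, and the line of Car2 crosses 0 in blood (-2.53 to 0.27) and between control tissues (-1.83 to 0.99).

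Levels of different genes are compared here per kilobase of exon. In control marrow Car4 had 98.9 CPM per kb, Car2 7.29, Car1 2.67 and Car13 1.78. In Atg5-knockout marrow the same levels were 28.7 for Car4, 19.4 for Car2, 6.59 for Car1 and 1.94 for Car13. Car4 thus made up 85.0% to 91.4% of the summed level of the family per kb in control marrow and 31.3% to 67.2% in knockout marrow. In knockout marrow replicate 2, Car2 exceeded Car4 per kb, with 46.3% of the family against 31.3%, the only library in which Car4 did not lead. In blood Car4 held 97.4% and 98.6% of the family in control replicates 2 and 3, 65.4% in control replicate 1, where Car2 held 31.8%, and 90.3% to 96.5% in the knockout libraries.

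The other 12 carbonic anhydrases were low throughout, and most had too few counts for the test. In marrow 4 could be tested between genotypes and edgeR called 0. In each of the other comparisons 2 could be tested, and the 1 call was Car9 between knockout tissues, 50% of those tested against 47.6% of all genes. Car9, a transmembrane enzyme induced by hypoxia, had 3.83 ± 1.30 CPM (SD, n = 3) in control marrow and 4.13 ± 1.03 CPM in knockout marrow, against 1.71 ± 0.63 CPM in control blood and 1.50 ± 0.20 CPM in knockout blood. It was lower in blood than in marrow in knockout mice (log2 fold change -1.44, SE 0.32, adjusted p = 0.00545, edgeR), while in control mice the log2 fold change was -1.17 (adjusted p = 0.0611, edgeR). Car5b, a mitochondrial enzyme, had group means between 1.77 and 3.33 CPM and was called in no comparison. Car3, an enzyme of muscle and fat that lies between Car1 and Car2, had 16 counts in control marrow, 43 in knockout marrow, 1 in control blood and 0 in knockout blood, and its log2 fold change in marrow was 1.41 (SE 0.53, adjusted p = 0.416, edgeR). Over all 12 libraries Car7 had 88 counts, Car12 75, Car14 55, Car6 and Car15 22 each, Car8 12, Car11 8, Car5a 3 and Car10 none. Of Car12, a transmembrane enzyme, 36 counts were in control marrow and 36 in knockout marrow, with 3 in blood.

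**Figure D3:**
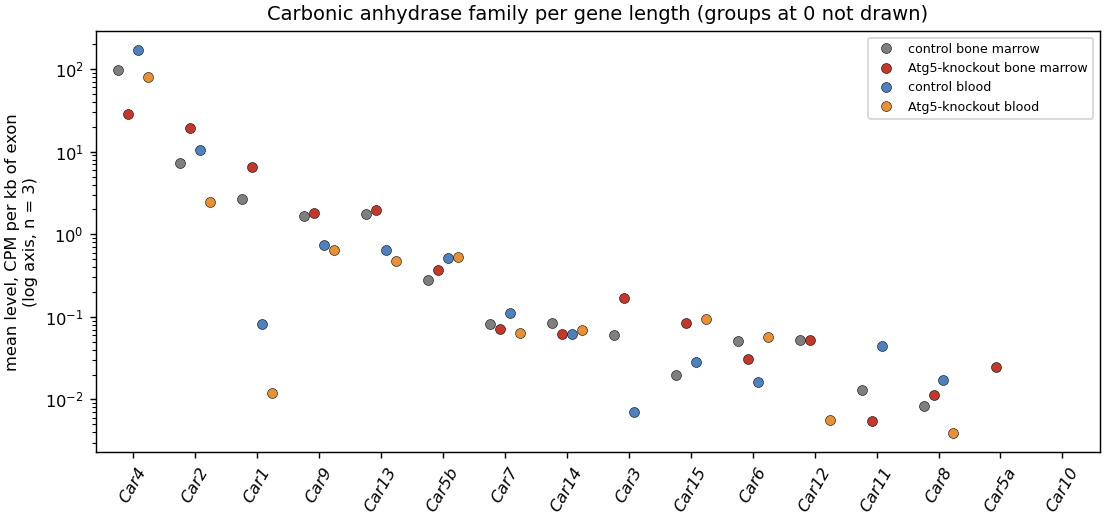
Mean level of each carbonic anhydrase gene per kb of exon (log axis, n = 3 libraries) in the 4 groups, ordered by the mean over groups, with groups at 0 not drawn. Car4 leads in every group mean, at 28.7 CPM per kb in Atg5-knockout marrow and 98.9 in control marrow, and most of the other genes lie below 1.

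Red cell RNA is described here beside Car1 and Car2. In marrow the red cell list, 15 genes such as the globin gene Hbb-bt and the heme synthesis gene Alas2, held 0.141%, 0.251% and 0.201% of counts in control and 0.414%, 0.724% and 0.206% in knockout libraries. Replicate 2 of knockout marrow was highest for the list, for Car1 and for Car2 alike. The list's share overlapped between the genotypes, with knockout replicate 3 (0.206%) below control replicate 2 (0.251%). Car1 and Car2 did not overlap between these groups. All 14 tested list genes had a positive log2 fold change in knockout marrow, from 0.13 to 2.003 with a median of 1.34 against 0.00 over all genes tested. Of these 13 had an unadjusted p under 0.05 and 1, Alas2, was called (1.51, adjusted p = 0.0411, edgeR), where 0.145% of all genes were called higher. Without knockout marrow replicate 2 all 14 stayed positive, with a median of 0.67, 7 at an unadjusted p under 0.05 and 0 called. Klf1, a transcription factor of nucleated red cell precursors, had 1.44 ± 0.15 CPM in control and 4.35 ± 2.69 CPM in knockout marrow (SD, n = 3). Per 1000 red cell counts, marrow libraries held 10.1, 9.69 and 9.78 counts of Car2 in control and 7.79, 13.25 and 13.7 in knockout mice. These ratios overlapped, with knockout replicate 1 below and knockout replicates 2 and 3 above all control libraries. Car1 per 1000 red cell counts likewise overlapped, with 1.32 to 2.31 in control and 1.14 to 2.51 in knockout marrow.

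Blood differed from marrow in this ratio. Blood libraries held 0.274 to 1.06 Car2 counts and at most 0.00977 Car1 counts per 1000 red cell counts. Klf1 had 7 counts in control blood and 6 in knockout blood, although Hbb-bt had 693 to 34780 CPM in the blood libraries and 132 to 896 CPM in marrow. In control blood replicate 1, with 14.6% red cell counts, Car2 reached 65.2 CPM and Car1 0.30 CPM. The 11 tested red cell genes all had negative log2 fold changes in knockout against control blood, with 0 called by edgeR and 9 at an unadjusted p under 0.05. Without control blood replicate 1, 10 of the 11 were negative, with a median of -1.02 against -3.39 with it, and 0 were called. The platelet list, 11 genes, held at most 0.0404% of counts, in control blood. Its 11 genes all had negative log2 fold changes in knockout against control blood, with a median of -2.44, 8 at an unadjusted p under 0.05 and 0 called by edgeR. Without control blood replicate 1, 10 of the 11 were negative, with a median of -0.48. In knockout against control marrow 9 of its 10 tested genes were positive, with a median of 0.63, 3 at an unadjusted p under 0.05 and 0 called. The osteoclast list held at most 0.00671%, and of the basophil and mast cell list at most 0.0270% was found in any library. Between tissues the red cell list went both ways. In control mice 8 of 14 tested were called, 7 higher in blood and 1 lower (16.2% and 18% of all genes), with a median log2 fold change of 2.26. Without control blood replicate 1 they were 7 higher and 3 lower, with a median of 0.25, where 42% of all genes were called. In knockout mice 7 of 14 were called, all lower in blood (24.1% of all genes), with 6 positive and 8 negative and a median of -1.825. Without Atg5-knockout blood replicate 1, 9 of 15 were called, 1 higher and 8 lower, with a median of -3.33 (54.3% of all genes called). Without Atg5-knockout marrow replicate 2, 9 of 14 were called, 2 higher and 7 lower, with a median of -0.89 (32% of all genes called). The part of red cell or platelet RNA in the Car1 and Car2 differences was not tested.

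**Figure D4:**
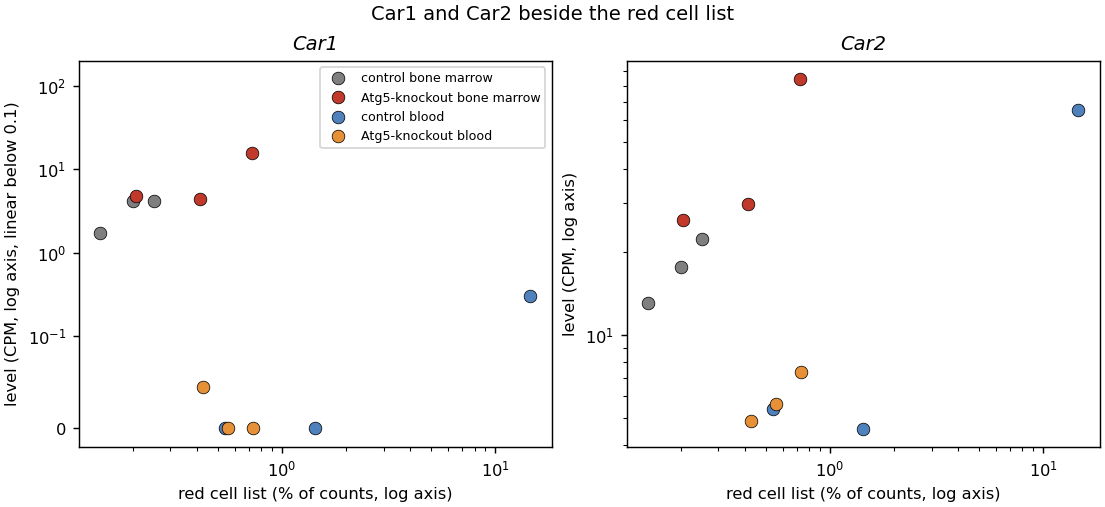
Levels of Car1 (left, log axis that is linear below 0.1) and Car2 (right, log axis) in CPM against the share of counts on the red cell list (percent, log axis) for the 12 libraries. Of the marrow libraries Atg5-knockout replicate 2 is highest on both axes (15.5 CPM of Car1), blood libraries lie low for Car1, and control blood replicate 1 lies apart at 14.6%.

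Genes that handle the products of carbonic anhydrases were listed from general knowledge, 69 in all with the other 12 family members. In Atg5-knockout against control marrow 37 could be tested and edgeR called 0 of them (0.348% of all genes), with 6 at an unadjusted p under 0.05 and 0 called by DESeq2. Their median log2 fold change was 0.16, against 0.00 over all genes. The 6 were Car3, Slc4a1, Aqp1, Rhag, Acaca and Hvcn1. Slc4a1, the chloride and bicarbonate exchanger of red cells, had 16.5 ± 4.72 CPM in control and 52.0 ± 39.4 CPM in knockout marrow (log2 fold change 1.63, adjusted p = 0.156, edgeR). Aqp1, a water channel, and Rhag, a gas channel of the Rhesus complex, had log2 fold changes of 1.47 and 1.38. Slc4a1, Aqp1 and Rhag are also expressed by red cells, and their highest marrow library was again knockout replicate 2. Acaca, which makes malonyl-CoA from bicarbonate, had a log2 fold change of 0.25. Hvcn1, the voltage-gated proton channel, was the 1 of the 6 with a negative value, with 103, 143 and 102 CPM in control and 91.9, 79.5 and 93.5 CPM in knockout marrow. These groups did not overlap, and the log2 fold change was -0.42 (adjusted p = 0.35, edgeR). In blood 31 were tested and edgeR called 0 (0.0371% of all genes), with 2 at an unadjusted p under 0.05, 0 called by DESeq2 and a median log2 fold change of -0.07 against 0.01 over all genes.

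Between tissues some of the same genes were lower in blood, and most did not pass the test in control mice. There 7 of 32 tested were called and 25 were not, 21.9% against 34.2% of all genes, all 7 lower in blood (18% of all genes were called lower), and the list's median log2 fold change was -0.39 against -0.00 over all genes. Without control blood replicate 1 the count was 15, of which 2 were higher, where 42% of all genes were called. Emb, a chaperone that brings lactate transporters to the membrane, fell from 302 ± 15.9 to 124 ± 12.3 CPM (SD, n = 3, log2 fold change -1.29, adjusted p = 0.000421, edgeR). Slc16a1, the lactate and proton transporter MCT1, fell by 2.66 on the log2 scale (adjusted p = 0.00658, edgeR). Slc4a8, a sodium-driven bicarbonate exchanger, fell by 3.70 (adjusted p = 0.00108, edgeR) and the sulfate and anion transporter gene Slc26a2 fell by 1.36. Cad, which starts pyrimidine synthesis from bicarbonate, Hvcn1 and Aqp9, a glycerol and water channel, fell by 1.29, 0.84 and 0.87.

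In Atg5-knockout mice 16 of 34 tested were called between tissues, 47.1% against 47.6% of all genes, with 15 lower (24.1% of all genes) and 1 higher (23.5%) in blood and a median log2 fold change of -0.58 against -0.01 over all genes. Aqp7, a glycerol channel, was the gene that rose, from 5 counts in marrow to 87 in blood (log2 fold change 4.47, SE 0.93, adjusted p = 0.00411, edgeR). Emb (-1.28), Slc16a1 (-3.05), Slc4a8 (-2.13), Slc26a2 (-1.50) and Cad (-1.50) fell in knockout as in control mice. Aqp1 (-5.14), Rhag (-4.24) and Slc4a1 (-3.08), genes of red cells, fell in knockout mice. In control mice none of the 3 was called, with log2 fold changes of -1.21, -1.97 and 2.04. With the replicate block, where none was called either, they were -2.28, -2.87 and 0.23. Of the carboxylases, which join bicarbonate to a substrate, Pcx fell by 2.49 (adjusted p = 0.0202, edgeR), Acaca by 0.90, Pcca by 0.61 and Pccb by 0.46. Aqp3, a water and glycerol channel, also fell, by 1.13. Whether the genotype effect differed between tissues was tested in a fit of 14712 genes, where edgeR called 0 (0% of genes), with 740 at an unadjusted p under 0.05 and 11 called by DESeq2.

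**Figure D5:**
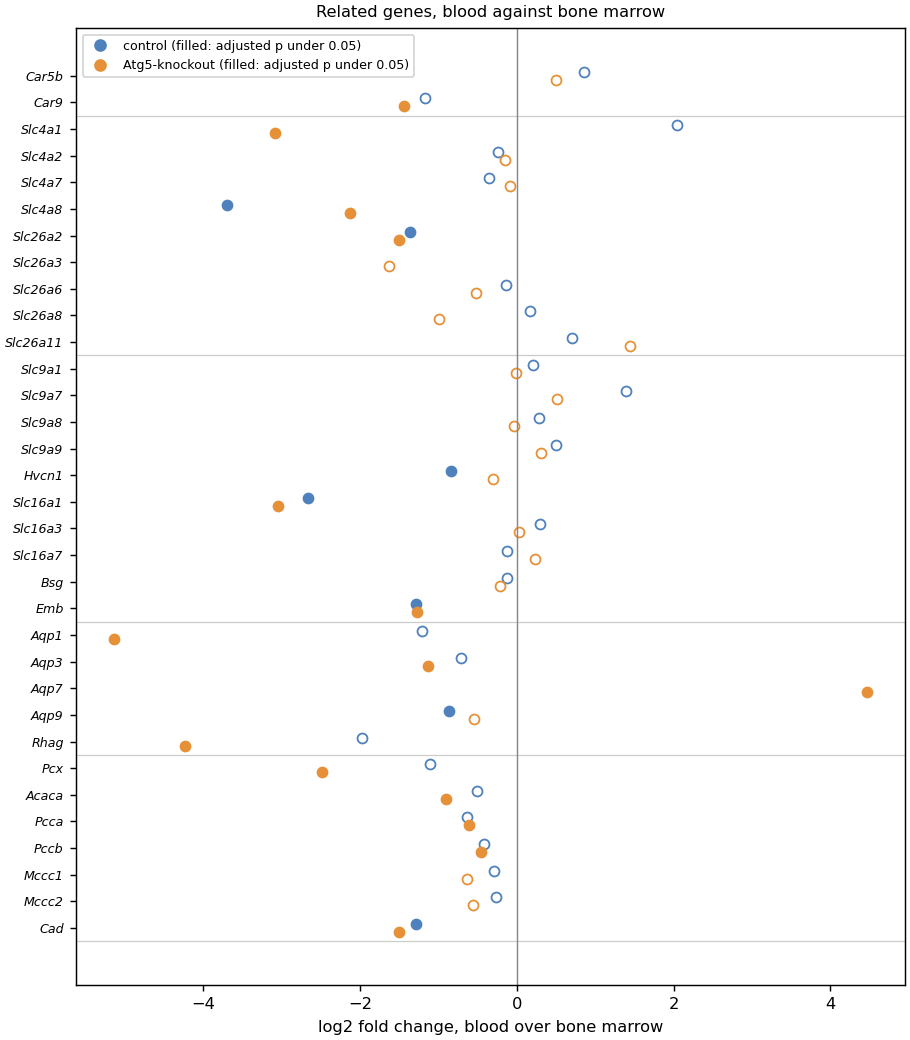
Log2 fold change of blood over bone marrow for the related genes that could be tested, apart from 1 that is not drawn, in control (blue) and Atg5-knockout mice (orange), filled where the adjusted p was under 0.05 and grouped by list from top to bottom (other carbonic anhydrases, bicarbonate transporters, proton and lactate exit, CO2 and water channels, bicarbonate-using enzymes). All filled points drawn lie left of 0 except Aqp7 in knockout mice (4.47).

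The genes whose log2 CPM followed each member most closely over the 12 libraries were taken from 14711 genes by Pearson correlation, as a description of libraries that fall into 4 groups and share depth and red cell RNA. For Car4 they were Aifm3 (r = 0.97), Enah (0.93), Lpcat3 (0.93), Ap4s1 (0.92) and Fer (0.91). Aifm3 had 12.7 ± 1.46 CPM in control marrow, 6.03 ± 1.33 in knockout marrow, 17.4 ± 7.13 in control blood and 11.4 ± 1.86 in knockout blood (SD, n = 3), the same order as Car4. For Car1 they were Cldn13 (0.99), Elovl6, Sh2d5, Cxcl12 and Ankrd28, and for Car2 Tmcc2 (0.98), Sowaha, Spire1, Ank1 and Btnl10. For Car13 they were 4933404O12Rik (0.99), Trim16, Olr1, Fam83d and Arhgap19. Among the members, Car1 followed Car13 (0.95) and Car2 (0.79), and Car4 ran against Car2 (-0.73), Car1 (-0.61) and Car13 (-0.51).

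The neighbouring genes showed no difference between genotypes in marrow that passed the test. Within 300 kb of Car4, 8 neighbours could be tested in marrow, Usp32 and Znhit3 to either side among them, and edgeR called 0 between genotypes, with 0 at an unadjusted p under 0.05 and log2 fold changes from -0.12 to 0.24. Around the chromosome 3 cluster 3 neighbours (Lrrcc1, E2f5 and Rbis) were tested, 0 were called and 0 had an unadjusted p under 0.05, with log2 fold changes from -0.35 to 0.13. In blood Rpl13-ps1 was tested near Car4 in place of Myo19. There edgeR called 0 of 8 neighbours of Car4 and 0 of the 3 around the cluster between genotypes. In each set 1 gene had an unadjusted p under 0.05. These were Dhrs11 near Car4, with a log2 fold change of -1.48 (adjusted p = 1.0, edgeR), and E2f5, with 1.11 (adjusted p = 1.0, edgeR). Dhrs11 had 86.2, 20.5 and 20.4 CPM in control blood and 16.8, 12.4 and 15.6 CPM in knockout blood, which did not overlap, and control replicate 1 was far the highest. Between tissues 3 of 9 neighbours of Car4 were called in control mice (34.2% of all genes) and 4 of 9 in knockout mice (47.6%), among them Usp32, higher in blood by 0.96 on the log2 scale in each genotype. Around the cluster 1 of 3 was called in control mice and 2 of 3 in knockout mice, Lrrcc1 in each and Rbis in the latter. No exon of a member overlapped an exon of another gene.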

How the data were processed

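RNA of eosinophils was sequenced by the authors from stranded mRNA libraries, in the Methods as single-end reads of 100 bases, aligned with HISAT2 2.2.1 and counted with featureCounts 2.0.1. The deposited values are raw counts per gene, not normalized, and the deposited exon length per gene was used for levels per kb. The table's header names Ensembl release 92 on GRCm38 with the option for paired ends and none for strand, whereas the Methods name GRCm39 release 104 and single-end reads. These differences could not be settled here. Coordinates are those of the table, and GENCODE M39 supplied symbols and transcripts only.

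The members and all lists were chosen with earlier results of these data known. Each comparison was fitted on its own 6 libraries with edgeR 4.0.16 (quasi-likelihood test, TMM, minimum count 10, minimum total 15, prior count 0.125; R 4.3.3, limma 3.58.1), with Benjamini-Hochberg adjustment over all genes tested and calls at an adjusted p under 0.05. Levels are CPM with TMM factors over all 12 libraries, and log2 CPM for correlations used a prior count of 2. The script was tested on simulated data. Counts of 18885052 to 30270166 per library limit the precision. Intervals are 95% exact intervals for the ratio of 2 Poisson rates, from pooled counts with their total held fixed.

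The genes named are the members, the other carbonic anhydrases with a count, listed pathway genes called (at most 6 per list and comparison), the 5 genes most like each member, neighbours within 300 kb, defining markers and Atg5. Klf1, Aqp1, Rhag, Slc4a1, Acaca and Hvcn1 in the marrow comparison and Ccr3 and Il5ra were named after their values were seen. The values of 1 listed gene are not reported here. In blood, libraries of equal number deviated together (correlations 0.499, 0.208 and 0.298), and fits with a block by number are given beside the others. No label pairs these libraries, and those of unequal number were not correlated. Replicate 1 stood apart in both blood groups, so these values do not show a pairing. Elsewhere the correlations lay between -0.147 and 0.129. Alternatives were DESeq2 1.42.0, other scalings, no filter, a prior count of 2, library sizes without red cell genes, 12 libraries in a fit, the replicate block, an added log2 threshold of 2, and each library left out.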

Additional observations from a re-analysis of the deposited data

How the results depend on the processing

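Of 323 alternative values, 288 stayed within 1 SD between replicates of the fold change reported or within 1.5 times the count reported, 33 moved further and 2 turned sign beyond that spread. Of 210 fold changes of the members among them, 3 turned sign, all of Car2. They were 0.27 between genotypes in blood and -1.83 between control tissues without control blood replicate 1, and -0.71 between control tissues with the replicate block, where 0.49 was reported. The cause of the other moves was not tested. In marrow the 48 genes called became 420 without a filter, 191 with DESeq2, 12 with 12 libraries in a fit, 23 with the replicate block and 13 with the added log2 threshold. In blood the 5 genes called became 77, 23, 16 and 10 in the first 4 of these settings. Between tissues the log2 threshold left 1308 genes in control and 1578 in knockout mice. The difference of the genotype effect between tissues gave 119 genes without a filter and 11 with DESeq2. Between knockout tissues, Car13 was -2.24 with library size alone and Car1 -6.47 with a prior count of 2. With 1 library left out, the genes called ranged from 18 to 219 in marrow (219 without control marrow replicate 1, 18 without control replicate 3, 24 without knockout replicate 1 or 2), 2 to 6 in blood (2 without control replicate 2 or 3 or knockout replicate 2 or 3, 3 without knockout replicate 1), 2627 to 5926 between control tissues (2627, 2994 and 3041 without control marrow replicates 3, 2 and 1) and 4584 to 7755 between knockout tissues. The listed pathway genes called between control tissues ranged from 6 to 15. Over the same fits the log2 fold change of Car2 ranged from 0.64 to 1.66 in marrow, -2.53 to 0.27 in blood, -1.83 to 0.99 between control tissues and -3.26 to -2.23 between knockout tissues, and that of Car1 from -9.47 to -4.52 and from -10.75 to -7.80 between control and knockout tissues. Between genotypes in blood the replicate block gave -0.83 for Car4 and -0.996 for Car2. In every comparison the libraries are known to share only a number. With the block, Alas2 in marrow had an adjusted p of 0.115, Ermap, a red cell gene named after its values were seen, 0.0372, and Car9 between control tissues 0.0481 (edgeR). The block called no listed pathway gene between genotypes. The marker lists without a library that stands apart were added after seeing the data. Depth limits Car1 in blood, which had 6 counts in 6 libraries.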
